A study of Mus musculus with 8 samples.

Results

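The endothelial cells of brain vessels carry a set of membrane transporters that bring sugars, amino acids, lipids and hormones into the nervous tissue and return drugs and waste to the blood. The genes described here were chosen by name. They are Slc2a1, Mfsd2a, Slco1c1, Slco1a4, Abcb1a, Abcg2, Abcc4, Slc7a5, Slc3a2 and Slc16a1, 10 of 19938 genes tested. All 10 were measured, each by 1 probe set assigned to that gene alone. The transporters were compared between 4 arrays of bitransgenic embryos (GFAP-tTA with TetO-VEGF-A164, annotated as induced overexpression of VEGF) and 4 arrays of wild-type embryos, all from brain cortex at embryonic day 16 on a mixed strain background. GFAP-tTA is a tetracycline-controlled activator driven by the Gfap promoter of astrocytes and their precursors. The labels describe the wild-type embryos as lacking TetO-VEGF-A164 and do not say whether they carried the activator. They do not say whether an array held 1 embryo or a pool, or whether littermates were used, so each p-value reflects array-to-array spread, which may in part be technical.

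The barrier is induced in the mouse embryo while vessels grow into the neural tube, and Wnt ligands made by neural progenitors switch on several of the transporters in endothelial cells. VEGF-A drives vessel growth and opens vessels to plasma proteins. Several of the carriers are not restricted to the barrier. Slc7a5, Slc3a2 and Slc16a1 are also used by dividing cells, and Slco1c1 and Abcc4 are also made in the choroid plexus.

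The deposited values are read as log2 and are centred on each probe set's own median over the 8 arrays, so they show which arrays were high or low for a gene but not how abundant its transcript was. With 8 arrays that median lies midway between the 2 middle values. For this reason neither the presence of the transporters in the cortex nor their order of abundance could be examined. In bulk tissue, fewer endothelial cells and less RNA per endothelial cell cannot be told apart. Vegfa, the gene of the transgene, was at 0.059, 0.078, -0.026 and -0.055 in VEGF 1 to VEGF 4, against -0.101, 0.036, -0.117 and 0.026 in control 1 to control 4. These groups overlapped (difference 0.053, limma adjusted p = 0.748), so Vegfa does not check the labels, and directions below are those of the arrays labelled VEGF.

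Some arrays stood apart in marker genes of brain regions and vessels, which in bulk tissue cannot tell cell content from expression per cell. The mean of 7 thalamic genes was 0.861, 0.752, 0.150 and -0.275 in VEGF 1 to VEGF 4, against -0.391, 0.294, -0.199 and -0.353 in control 1 to control 4, which puts VEGF 1, VEGF 2 and control 2 highest. For 7 cortical neuron genes the mean was -0.388, -0.483, -0.048 and 0.099 in VEGF 1 to VEGF 4, against 0.101, -0.039, 0.048 and 0.136 in control 1 to control 4. Control 2 was thus not low to the extent of VEGF 1 and VEGF 2. The mean of 15 pan-endothelial genes was 0.008, 0.049, -0.182 and 0.054 in VEGF 1 to VEGF 4, against 0.015, 0.082, -0.159 and 0.026 in control 1 to control 4. VEGF 3 and control 3 were thus low in vessel genes, while the groups overlapped. Of the 15 genes, 6 were higher and 9 lower in the VEGF group, with a median difference of -0.001, and 0 of them had an unadjusted p under 0.05. Pecam1 and Cdh5, junction proteins of endothelial cells, differed by 0.015 and -0.064, and the VEGF receptors Kdr and Flt1 by -0.016 and 0.020.

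Promoter sequences are shown for Mfsd2a, Slco1a4 and Slc16a1, whose values were distributed over the arrays in 3 different ways described below. Each line gives 200 bases directly before the transcription start, 5′ to 3′ on the gene's strand, from RefSeq on GRCm38.p6. Capitals mark matches on either strand to CTTTGA (the core bound by the Wnt effectors TCF and LEF), ACGTG (the core of the hypoxia response element) or GGGCGG (a GC box). The coordinates are chr4:122961189-122961388 on the minus strand for Mfsd2a, chr6:141856221-141856420 on the minus strand for Slco1a4 and chr3:104638464-104638663 on the plus strand for Slc16a1.
Mfsd2a: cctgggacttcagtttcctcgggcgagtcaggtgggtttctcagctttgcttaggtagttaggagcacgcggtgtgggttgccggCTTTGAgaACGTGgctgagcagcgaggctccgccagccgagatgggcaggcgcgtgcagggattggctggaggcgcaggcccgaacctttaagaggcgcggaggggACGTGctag
Slco1a4: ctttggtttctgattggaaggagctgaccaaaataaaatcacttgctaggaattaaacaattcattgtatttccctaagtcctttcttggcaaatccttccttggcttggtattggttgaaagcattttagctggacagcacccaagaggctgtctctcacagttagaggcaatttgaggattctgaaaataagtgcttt
Slc16a1: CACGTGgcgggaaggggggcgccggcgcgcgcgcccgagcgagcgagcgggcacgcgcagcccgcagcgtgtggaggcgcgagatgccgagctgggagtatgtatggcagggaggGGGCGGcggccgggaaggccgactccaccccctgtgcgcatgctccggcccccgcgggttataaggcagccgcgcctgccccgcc

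These promoters differ in composition. Over the 250 bases before the start, the ratio of observed to expected CpG was 0.75 for Mfsd2a, 0 for Slco1a4 and 1.03 for Slc16a1, against a median of 0.37 over 32851 promoter windows. RefSeq windows were at hand for 9 of the 10 transporters, 12 windows in all. No CpG was present in 3 of the 12 windows (Slco1a4, Slco1c1 and Abcb1a), against 7.87% of all windows. CTTTGA was found in 3 of the 12 windows (Abcb1a, Mfsd2a and Slc3a2), against 13.8% of all windows. ACGTG was found in 5 of the 12 (Abcc4, Mfsd2a, Slc16a1, Slc2a1 and Slc3a2), against 16.6%. GGGCGG was found in 6 of the 12, from 5 genes (Abcc4, Abcg2, Slc16a1, Slc2a1 and Slc3a2), against 32.7%. In Slc16a1 the palindrome CACGTG is matched by ACGTG on both strands. A match describes the letters only.

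The comparison asks whether transporter transcripts of the barrier differ in a cortex labelled as overexpressing VEGF. No transporter passed the test across all genes. With limma and Benjamini-Hochberg adjustment, 0 of 10 transporters had an adjusted p under 0.05, and the share over all 19938 genes was 0.0%. At an unadjusted p under 0.05 there was 1 transporter, Mfsd2a, and it was lower in the VEGF group. The share of all genes was 12.5% (2484 genes), 7.84% lower and 4.62% higher. In 0 of the 10 did the 2 groups of arrays not overlap, which was the case for 6.84% of all genes, 4.71% lower and 2.13% higher in the VEGF group. The methods' t-test also gave 0 transporters and 0 genes after adjustment, and 1 transporter and 2114 genes at its unadjusted level. The median difference of the 10 was -0.022, against -0.010 over all genes, with 6 below 0 (56.7% of all genes were below 0). For 9 of 10 transporters the 95% interval of the difference included 0.

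**Figure D1:**
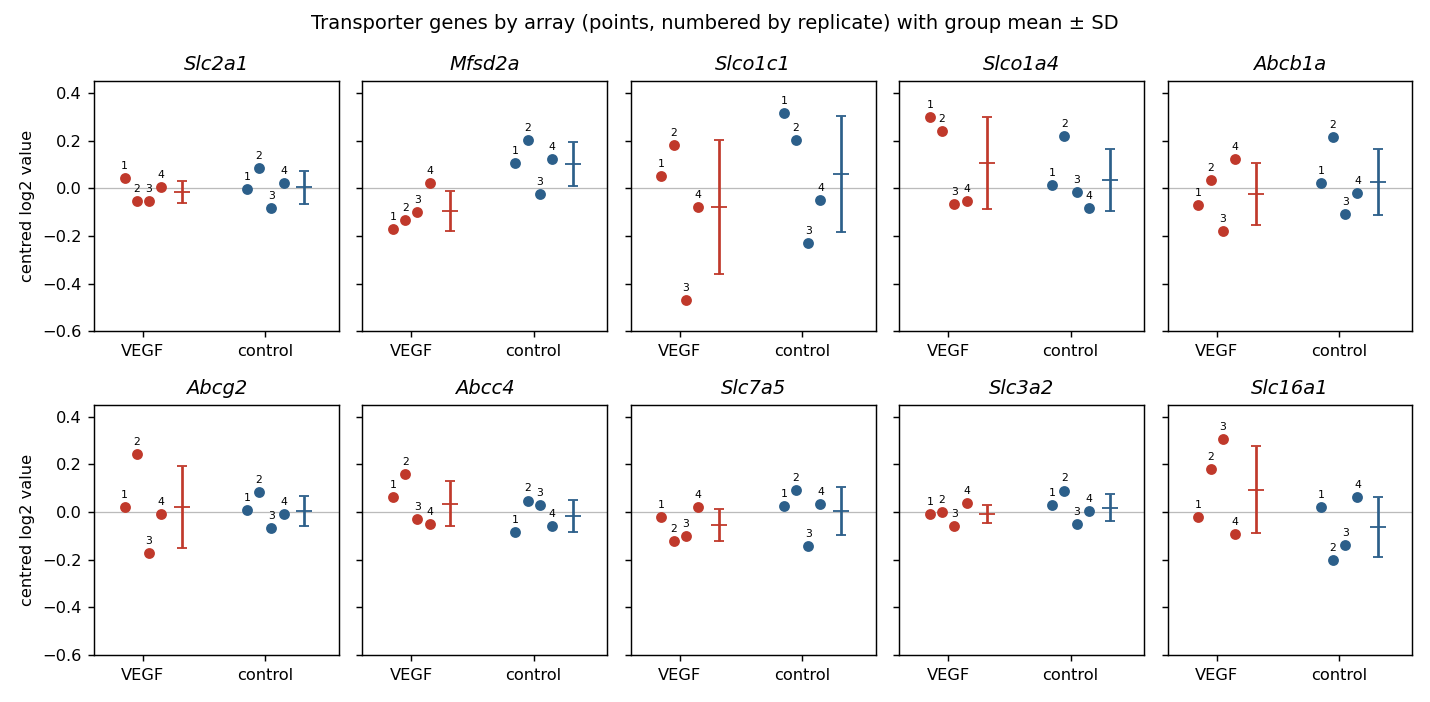
Centred log2 value (vertical axis) of each transporter gene in the 4 VEGF arrays (red, left) and the 4 control arrays (blue, right), numbered by replicate, with the mean and SD of each group beside the points. The groups overlap for all 10 genes. Mfsd2a has 3 of 4 VEGF arrays below all control arrays, and Slco1c1 has the widest range, from -0.471 in VEGF 3 to 0.315 in control 1.

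Among the carriers of sugars and lipids, Slc2a1 (GLUT1, the glucose carrier of the barrier) was at 0.042, -0.052, -0.053 and 0.005 in VEGF 1 to VEGF 4, against -0.005, 0.083, -0.084 and 0.023 in control 1 to control 4. All 4 VEGF values lay inside the control range, and the whole span was 0.166. The means were -0.015 ± 0.046 in the VEGF group and 0.004 ± 0.069 in control (SD, n = 4 each). They differed by -0.019, with an SE of 0.044 (limma adjusted p = 0.918, exact permutation p = 0.657). The 95% interval ran from -0.118 to 0.080, so this comparison bounded the change of Slc2a1 within about that range on the log2 scale. Its within-group SD was at the 32.3 percentile of all genes, among the steadier of the set.

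Mfsd2a stood lowest relative to its spread. This carrier brings lysophosphatidylcholine with docosahexaenoic acid into the brain and restrains vesicular transport across the endothelium. It was at -0.171, -0.133, -0.098 and 0.023 in VEGF 1 to VEGF 4, against 0.105, 0.204, -0.023 and 0.121 in control 1 to control 4. VEGF 1, VEGF 2 and VEGF 3 were below every control array, while VEGF 4 lay above control 3. The means were -0.095 ± 0.084 in the VEGF group and 0.102 ± 0.094 in control (SD, n = 4 each). The difference was -0.196 with an SE of 0.058 and a 95% interval from -0.328 to -0.065, or 0.873-fold if the logarithm is to base 2. This did not pass over all genes (limma adjusted p = 0.261, unadjusted p = 0.0081, exact permutation p = 0.0571), and the smallest exact p that 4 against 4 arrays allow is 0.0286. In size it was at the 94.1 percentile of absolute differences.

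The Mfsd2a values were set beside the marker means of the arrays. Relative to the pan-endothelial mean of the same array, Mfsd2a was at -0.179, -0.182, 0.084 and -0.031 in VEGF 1 to VEGF 4, against 0.090, 0.122, 0.136 and 0.095 in control 1 to control 4. On that scale the 2 groups did not overlap, though VEGF 3 came close to control 1. Mfsd2a was the 1 transporter of 10 with such groups, and the share of all genes on that scale was 2.21%, with 2.02% lower in the VEGF group. The subtraction raised VEGF 3 and control 3 for every gene, and Mfsd2a in control 3 went from -0.023 to 0.136. Before it the Mfsd2a groups overlapped and the share of all genes was 6.84%. The 1 of 10 therefore depends on the scale and is not read as a result about the transporters. With the pan-endothelial mean as a covariate the Mfsd2a difference was -0.192 (limma adjusted p = 0.174). That mean differed by only -0.009 between the groups, so neither subtracting it nor adjusting for it could move the group difference far. The part of vessel content in the Mfsd2a values was not tested. VEGF 1 and VEGF 2, high in thalamic genes, had the lowest Mfsd2a values, whereas control 2, also high in thalamic genes, had the highest. Without these 3 arrays the difference was -0.105 (limma unadjusted p = 0.14), and with the thalamic mean as a covariate it was -0.159 (unadjusted p = 0.055). Both settings were added after the values were seen, and fewer arrays also give less power. All 7 thalamic genes were higher in the VEGF group (mean difference 0.534). The covariate therefore takes up part of the group difference, and the 2 cannot be told apart.

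**Figure D2:**
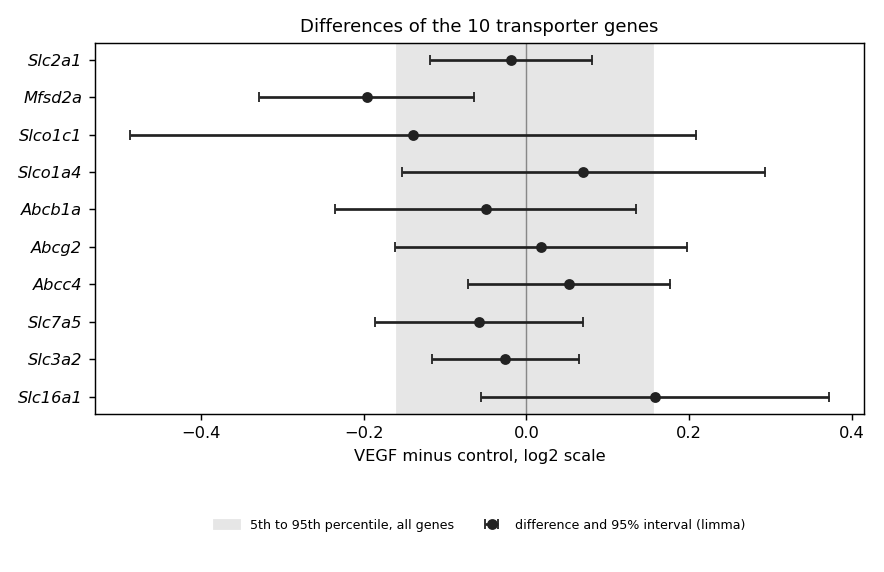
Difference of each transporter, VEGF minus control on the log2 scale (horizontal axis), with its 95% interval from limma, over a grey band from the 5th to the 95th percentile of the differences of all genes tested (-0.159 to 0.155). Mfsd2a at -0.196 is the one gene whose interval excludes 0, and Slc16a1 at 0.158 lies just outside the band on the other side.

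Slco1c1 and Slco1a4 are organic anion carriers, and Slco1c1 (OATP1C1) is the main carrier of thyroxine into the mouse brain. Slco1c1 was at 0.051, 0.180, -0.471 and -0.078 in VEGF 1 to VEGF 4, against 0.315, 0.202, -0.228 and -0.051 in control 1 to control 4. VEGF 3 and control 3, both low in vessel genes, had the lowest values of their groups. The spread was wide, with a within-group SD of 0.264 at the 98.2 percentile of all genes, and the difference of -0.139 had an SE of 0.154 (limma adjusted p = 0.793, exact permutation p = 0.457). Single arrays set its size, with -0.009 without VEGF 3, -0.054 without control 1 and -0.235 without control 3. Its interval ran from -0.487 to 0.208, so these arrays could not detect a difference of the size seen for Mfsd2a in this gene.

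Slco1a4 (OATP1A4) was at 0.300, 0.240, -0.068 and -0.055 in VEGF 1 to VEGF 4, against 0.014, 0.220, -0.014 and -0.083 in control 1 to control 4. The 3 highest values fell in VEGF 1, VEGF 2 and control 2, the same 3 arrays that were highest in thalamic genes, and the other 5 arrays lay between -0.083 and 0.014. The mean of 7 choroid plexus genes was also highest in these 3 arrays, at 0.195, 0.140 and 0.266, so the pattern is not particular to thalamic genes. The part of either list in the Slco1a4 values was not tested. For Slco1a4 the groups differed by 0.070 with an SE of 0.099 (limma adjusted p = 0.849, exact permutation p = 0.629). The difference was 0.005 without VEGF 1 and 0.025 without VEGF 2. With the thalamic mean as a covariate the difference was -0.117 (unadjusted p = 0.075), of opposite sign, and without the 3 arrays it was -0.034. Neither passed the threshold, and both settings were added after the values were seen. Slco1a5, a close relative in the same gene cluster, differed by 0.044 (limma adjusted p = 0.743) and did not share this pattern, with 0.121 in VEGF 1 but 0.003 in VEGF 2.

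The ABC pumps use ATP to return drugs and conjugates to the blood. Abcb1a (P-glycoprotein) was at -0.069, 0.035, -0.180 and 0.122 in VEGF 1 to VEGF 4, against 0.020, 0.217, -0.109 and -0.020 in control 1 to control 4. The VEGF and control arrays were interleaved, with VEGF 3 lowest and control 2 highest. The difference was -0.050 with an SE of 0.082 (limma adjusted p = 0.874, exact permutation p = 0.600). Abcb1b, its neighbouring paralog, differed by -0.013 (limma adjusted p = 0.947). Both paralogs are similar in sequence, and the extent to which their probes tell them apart was not examined.

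Abcg2 (BCRP) was at 0.021, 0.245, -0.172 and -0.009 in VEGF 1 to VEGF 4, against 0.008, 0.083, -0.068 and -0.008 in control 1 to control 4. The VEGF group held both the highest and the lowest array, and its SD was 0.171 against 0.062 in control. The difference was 0.018 with an SE of 0.079 (limma adjusted p = 0.960, exact permutation p = 0.886). Abcc4 (MRP4), which exports conjugated anions and cyclic nucleotides, was at 0.061, 0.160, -0.030 and -0.051 in VEGF 1 to VEGF 4, against -0.085, 0.048, 0.030 and -0.061 in control 1 to control 4. VEGF 2 and VEGF 1 were the highest arrays and the other VEGF arrays lay within the control range. Its difference was 0.052 with an SE of 0.055 (limma adjusted p = 0.782, exact permutation p = 0.400). Both genes changed sign with the thalamic mean as a covariate, Abcg2 to -0.069 and Abcc4 to -0.033.

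Slc7a5 (LAT1) and Slc3a2 (4F2hc) form a heterodimer that exchanges large neutral amino acids, Slc7a5 as the transporting subunit and Slc3a2 as the glycoprotein that brings it to the membrane. Slc7a5 was at -0.021, -0.120, -0.100 and 0.021 in VEGF 1 to VEGF 4, against 0.024, 0.094, -0.141 and 0.035 in control 1 to control 4. Control 3 was lowest, so all VEGF arrays lay within the control range. The difference was -0.058 with an SE of 0.057 (limma adjusted p = 0.758, exact permutation p = 0.343). Slc3a2 was at -0.010, -0.002, -0.057 and 0.038 in VEGF 1 to VEGF 4, against 0.028, 0.090, -0.049 and 0.002 in control 1 to control 4. It was the steadiest of the set, with a span of 0.147 and a within-group SD at the 22.3 percentile, and VEGF 3 and control 3 were again lowest in their groups. Its difference was -0.026 with an SE of 0.040 and an interval from -0.116 to 0.065 (limma adjusted p = 0.866, exact permutation p = 0.457).

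Slc16a1 (MCT1) carries lactate, pyruvate and ketone bodies, and was the transporter with the largest positive difference. It was at -0.020, 0.182, 0.308 and -0.092 in VEGF 1 to VEGF 4, against 0.020, -0.201, -0.138 and 0.064 in control 1 to control 4. VEGF 2 and VEGF 3 lay above every control array, while VEGF 1 and VEGF 4 lay within the control range. The means were 0.094 ± 0.184 in the VEGF group and -0.064 ± 0.126 in control (SD, n = 4 each). They differed by 0.158, with an SE of 0.095 and an interval from -0.056 to 0.372 (limma adjusted p = 0.557, exact permutation p = 0.200). Without VEGF 4 the difference was 0.220 (limma adjusted p = 0.326, unadjusted p = 0.042), which brings the transporters at an unadjusted p under 0.05 to 2. It was 0.087 without VEGF 3, 0.062 without VEGF 3 and control 3 and 0.048 with array weights (limma adjusted p = 0.792, 0.861 and 0.880). The share of all genes at an unadjusted p under 0.05 without VEGF 4 was not computed, so the count of 2 has no background beside it. VEGF 3 and VEGF 2 also had the highest means of 10 cell-cycle genes, at 0.267 and 0.126, against -0.017 and 0.020 in VEGF 1 and VEGF 4 and -0.127, -0.178, 0.043 and -0.084 in control 1 to control 4. Its part in the Slc16a1 values was not tested, and that list was set beside Slc16a1 after the values were seen. Bsg (basigin), the chaperone that takes Slc16a1 to the membrane, differed by -0.032 (limma adjusted p = 0.817).

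**Figure D3:**
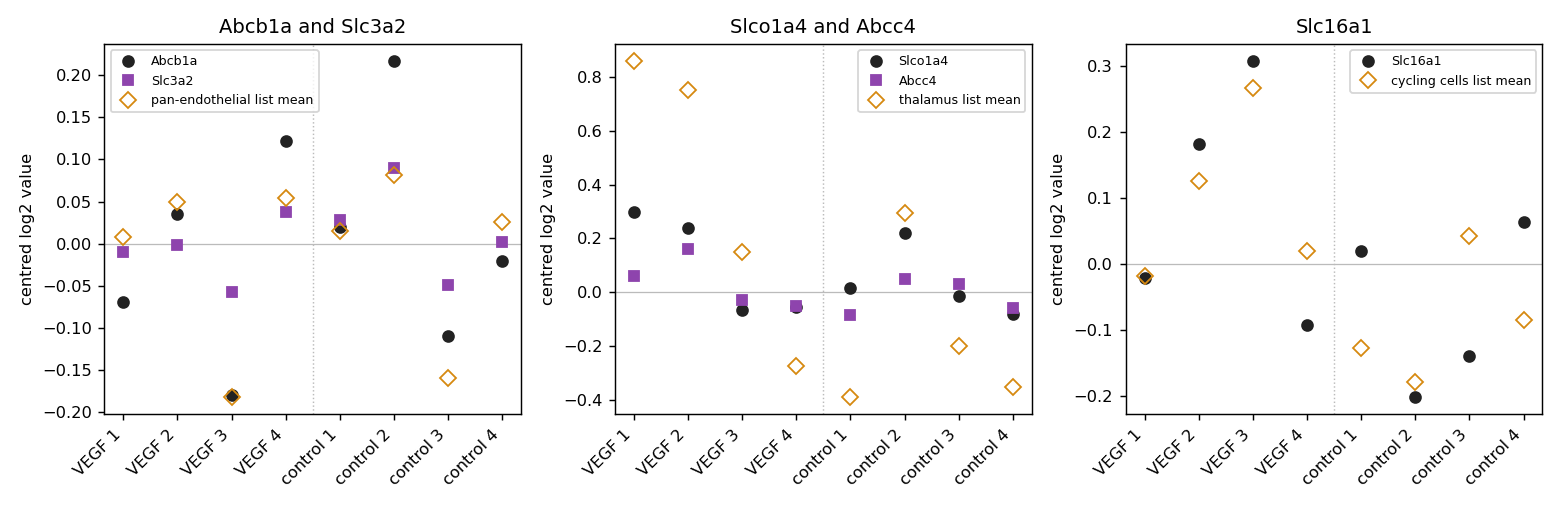
Centred log2 values (vertical axes, each with its own scale) in the 4 VEGF arrays (left of the dotted line) and the 4 control arrays (right). Filled symbols are transporter genes and open diamonds the mean of a marker list, with Abcb1a and Slc3a2 beside the pan-endothelial mean, Slco1a4 and Abcc4 beside the thalamic mean, and Slc16a1 beside the cell-cycle mean. Abcb1a and Slc3a2 are low in VEGF 3 and control 3, Slco1a4 is highest in VEGF 1, VEGF 2 and control 2, and Slc16a1 is highest in VEGF 3 and VEGF 2.

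Across the 8 arrays, some transporters were correlated with the vessel genes. Of 10 relations with the pan-endothelial mean, 3 had a Pearson correlation with an adjusted p under 0.05, adjusted over these 10. The share of all genes with such a relation was not computed, so the count is not read as a trait of the transporters. Abcb1a had a Pearson r of 0.851 (p = 0.0064 by exact permutation, 0.032 after adjustment). Its Spearman rho was 0.976 (p = 0.0004 by exact permutation, 0.004 after adjustment). Leaving out VEGF 3 and control 3, the arrays farthest from the median, gave an r of 0.933. Slc3a2 had an r of 0.852 (p = 0.0026 by exact permutation, 0.026 after adjustment) and a rho of 0.905 (p = 0.0046 by exact permutation, 0.023 after adjustment). Leaving out the same arrays gave 0.774. Slco1c1 had an r of 0.815 (p = 0.013 by exact permutation, 0.045 after adjustment) but a rho of 0.548 (p = 0.17 by exact permutation, 0.28 after adjustment). Its r was 0.033 without these arrays, so the relation rests on them. Mfsd2a followed the vessel genes less closely, with r = 0.392 (exact permutation p = 0.33, adjusted p = 0.41) and rho = 0.524 (p = 0.20 by exact permutation, 0.28 after adjustment). Without them its r was 0.430. Slc16a1 had an r of -0.368 (exact permutation p = 0.37, adjusted p = 0.41), a rho of -0.405 (p = 0.33 by exact permutation, 0.41 after adjustment) and an r of -0.482 without them. With 4 arrays each, the groups are too small for correlations of their own.

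Among the 45 pairs of transporters, 9 had an r above 0.7, and 14 had an r below 0. Shares over pairs of all genes were not computed, so these counts are not read as a result about the transporters. Abcb1a and Slc3a2 were the one pair with an adjusted p under 0.05, with r = 0.963 (exact permutation p = 0.00025, adjusted p = 0.011), rho = 0.929 (p = 0.0022 by exact permutation, 0.10 after adjustment) and r = 0.883 without VEGF 3 and control 2. The 2 subunits of the amino acid exchanger had r = 0.853 (exact permutation p = 0.0068, adjusted p = 0.10), rho = 0.786 (p = 0.028 by exact permutation, 0.25 after adjustment) and r = 0.768 without VEGF 3 and control 2. Over all genes tested, those with the array pattern most like Slc2a1 were Atp4a (r = 0.987), Tinagl1 (0.986), Slc46a3 (0.973), Notch4 (0.973) and Ric8a (0.970). Those most like Mfsd2a were Lamtor4 (0.981), Zfp444 (0.980), Npc2 (0.973), Stxbp2 (0.971) and Fgd1 (0.969). These are the highest correlations over all genes tested, across 8 arrays, and describe likeness only.

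Other transport genes listed for brain endothelium lay mostly below control. The list was chosen with earlier results of these data known, so it lends the Mfsd2a difference no support. Of 19 measured, of 22 listed, 15 had a lower and 4 a higher mean in the VEGF group, 78.9% lower against 56.7% of all genes, with a median difference of -0.089. None passed over all genes (limma), and 6 had an unadjusted p under 0.05, 5 lower and 1 higher, or 31.6% against 12.5% of all genes. Slc35f2, a solute carrier, was at -0.045, -0.117, -0.206 and -0.002 in VEGF 1 to VEGF 4, against 0.152, 0.153, 0.113 and 0.002 in control 1 to control 4, and its groups did not overlap (difference -0.197, limma adjusted p = 0.243). Lrp8, a receptor of reelin and apolipoprotein E that neurons also make, differed by -0.179 (limma adjusted p = 0.263), also without overlap. Slco2b1, another organic anion carrier, differed by -0.172 (limma adjusted p = 0.310). Tfrc, the transferrin receptor, differed by 0.050 (limma adjusted p = 0.914).

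Meningeal, pan-endothelial and pericyte marker genes moved in the same arrays as some of these carriers. Slc38a5 and Slc22a8, carriers of neutral amino acids and of organic anions, were at -0.687 and -0.638 in VEGF 3, against -0.109 and -0.151 in control 3 and 0.349 and 0.323 in control 2. The mean of 8 meningeal genes was -0.024, 0.031, -0.497 and 0.111 in VEGF 1 to VEGF 4, against 0.025, 0.258, -0.207 and 0.055 in control 1 to control 4, and 3 of the 8 were higher and 5 lower in the VEGF group. In VEGF 3, control 3 and control 2 the pan-endothelial mean was -0.182, -0.159 and 0.082, and the pericyte mean -0.252, -0.128 and 0.111. The likeness is thus not particular to meningeal genes, and the part of these lists in the values of the 2 carriers was not tested. Both carriers were picked out after their values were seen.

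**Figure D4:**
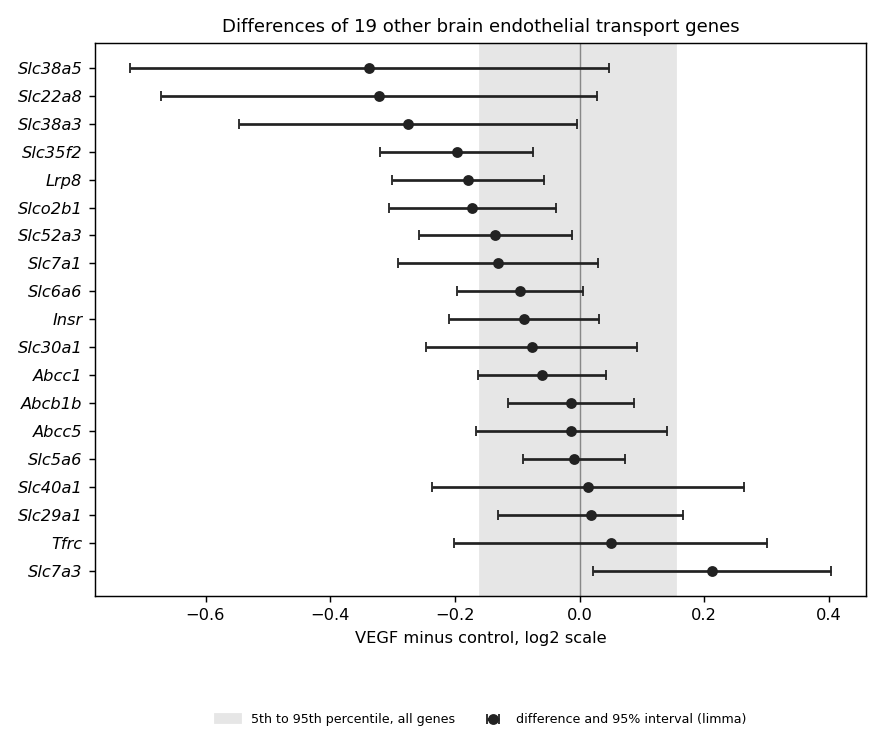
Difference of 19 other brain endothelial transport genes, VEGF minus control on the log2 scale (horizontal axis), with 95% intervals from limma, over the band from the 5th to the 95th percentile of all genes. The genes run from Slc38a5, lowest, to Slc7a3, highest, and 15 of the 19 lie below 0.

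Regulators and junction proteins of the barrier gave a mixed picture. Of 17 measured Wnt and other regulators, 5 were higher and 12 lower, none passed over all genes (limma), and 4 (2 higher, 2 lower) had an unadjusted p under 0.05, or 23.5% against 12.5% of all genes. Wnt7a, a ligand of neural progenitors that acts on brain endothelium, was at -0.434, -0.271, -0.118 and -0.040 in VEGF 1 to VEGF 4, against 0.256, 0.040, 0.128 and 0.177 in control 1 to control 4. Its groups did not overlap (difference -0.366, limma adjusted p = 0.243). Wnt7b, the companion ligand, differed by -0.275 (limma adjusted p = 0.339), and Adgra2 (GPR124), the endothelial co-receptor of both, by -0.011 (adjusted p = 0.978). Lef1 and Tnfrsf19, which respond to Wnt signals, differed by 0.364 and 0.220 (limma adjusted p = 0.262 and 0.293), and Lef1, which the embryonic thalamus also makes, was highest in VEGF 1 and VEGF 2, at 0.379 and 0.373, against 0.074 in control 2. Wnt7b was lowest in VEGF 1 and VEGF 2, at -0.437 and -0.443. With the thalamic mean as a covariate the differences were -0.207 for Wnt7a, -0.076 for Wnt7b and 0.150 for Lef1, and without VEGF 1, VEGF 2 and control 2 they were -0.266, -0.095 and 0.280 in the same order. Of 8 junction and vesicle genes, 6 were higher and 2 lower, and 0 had an unadjusted p under 0.05. Cldn5 and Ocln, tight junction proteins, differed by -0.244 and -0.074, and Plvap, a protein of leaky endothelium, and Lsr, a protein of tricellular junctions, by 0.068 and 0.073 (limma adjusted p between 0.526 and 0.794).

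Relatives of the transporters and genes of the pathways known to regulate them were read from the same fit, and none passed over all genes. Of 20 relatives and partners, 8 were higher and 12 lower, and 3 had an unadjusted p under 0.05, all higher, or 15% against 12.5% of all genes. Slc16a3 (MCT4), a lactate exporter of glycolytic cells, was at 0.131, 0.231, 0.626 and 0.067 in VEGF 1 to VEGF 4, against -0.152, -0.118, -0.067 and -0.080 in control 1 to control 4. The groups did not overlap, and VEGF 3 stood highest for Slc16a3 as it did for Slc16a1 (difference 0.368, limma adjusted p = 0.254). Slc43a1 (LAT3), an amino acid carrier, differed by 0.261 without overlap (limma adjusted p = 0.290), the export pump Abcc3 by 0.169 (adjusted p = 0.393) and Slc2a3, the glucose carrier of neurons, by -0.044 (adjusted p = 0.874).

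Slc2a1 and Slc16a3 are known targets of the hypoxia response. Of 14 genes of hypoxia and glycolysis, 10 were higher and 4 lower, and 4 had an unadjusted p under 0.05, 3 higher and 1 lower, or 28.6% against 12.5% of all genes. Some lists share genes, and Slc16a3 is counted both here and among the relatives, so the shares are not separate findings. Ndrg1, a hypoxia-responsive gene, differed by -0.576 and the collagen hydroxylase subunit P4ha1 by 0.121 (limma adjusted p = 0.272 and 0.345). Slc7a5 and Slc3a2 are known targets of the amino acid response. Of its 11 genes, 7 were higher and 4 lower, and 3 had an unadjusted p under 0.05, all higher, or 27.3% against 12.5% of all genes. These were the stress sensor Sesn2 with 0.272, the serine synthesis enzyme Psat1 with 0.202 and asparagine synthetase Asns with 0.085 (limma adjusted p = 0.265, 0.333 and 0.379), while Slc7a5 and Slc3a2 themselves were at -0.058 and -0.026.

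Markers of other cell types were distributed as follows. Of 10 pericyte genes, 4 were higher and 6 lower, with list means between -0.252 and 0.016 in the VEGF group and between -0.128 and 0.111 in control. Of 7 choroid plexus genes, 1 was higher and 6 lower, with means between -0.203 and 0.195 in the VEGF group and between -0.064 and 0.266 in control. All 8 erythroid genes were higher, with means between -0.008 and 0.661 in the VEGF group and between -0.149 and -0.008 in control. Of 7 microglial genes 4 were higher, of 8 astrocyte and radial glia genes 4, of 10 cell-cycle genes 10, of 7 cortical neuron genes 1 and of 7 thalamic genes 7. At an unadjusted limma p under 0.05 there were 7 of 10 cell-cycle genes (70%), 4 of 8 astrocyte and radial glia genes (50%, all without overlap), 3 of 7 cortical neuron genes (42.9%), 3 of 8 erythroid genes (37.5%), 2 of 7 microglial genes (28.6%), 1 of 7 thalamic genes (14.3%) and 1 of 8 meningeal genes (12.5%), against 12.5% of all genes. There were 0 of the pericyte and 0 of the choroid plexus genes. None of these markers passed over all genes (limma), and their part in the transporter values was not tested.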

How the data were processed

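Brain cortex RNA of embryonic day 16 mice was hybridised to 8 Affymetrix whole-transcript arrays, 4 per group, after labelling with the Ambion WT Expression kit, per the labels' protocols. Affymetrix Expression Console and the build mm8 are named in the submitters' processing notes. How background was corrected and probes were summarised is not stated there. The authors deposited values taken as log2 (the base is not stated), with every probe set median within 5e-07 of 0. Dim probe sets could not be filtered, since no brightness is kept, and the number of arrays limits the precision.

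Of 28853 probe sets, 21789 had 1 symbol, 1621 several and 5443 none here. Symbols were updated through RefSeq (GRCm38.p6), matching 21698. Where several probe sets named 1 gene (999 of 19938 genes, no transporter among them), their mean was used. Array medians lay between -0.0091 and 0.0154, and 0 array pairs were identical. Groups came from sample titles.

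The test was limma (version 3.58.1, R 4.3.3) with empirical Bayes moderation and no covariate, with Benjamini-Hochberg adjustment over all genes at 0.05. SEs and intervals are from this fit. It was tested on simulated data. Exact tests were two-sided, in Python 3.11.15. The transporters and lists were chosen with earlier results of these data known. The genes named were all transporters, the 3 of smallest p in each gene list, a fixed set (Bsg, Slc2a3, Abcb1b, Slco1a5, Cldn5, Ocln, Plvap, Pecam1, Cdh5, Kdr, Flt1, Tfrc, Wnt7a, Wnt7b, Adgra2 and Lef1) and, for likeness, the 5 of highest r for Slc2a1 and for Mfsd2a, leaving out predicted and clone-named genes. Vegfa is named as the gene of the transgene, and Slc38a5, Slc22a8 and Slc7a3 are named outside this rule, after their values were seen. The rule was read as covering the gene lists and not the cell type markers, and this reading was settled after values and outlying arrays had been seen.

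Alternatives were quantile normalization, median-centred arrays, array weights, a robust prior with a trend, a replicate block, the methods' t-test, probe sets tested alone, a sex index (Xist minus Y-linked genes) or the pan-endothelial mean as covariate, and leaving out each array. The 3 settings on the thalamic and endothelial means were added after seeing the data. The thalamic mean differed between the groups, so settings on it cannot tell thalamic genes apart from the group label.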

Additional observations from a re-analysis of the deposited data

Results flagged for a closer look

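No transporter gene had an array far from the others of its group, by a gap measured against the group's range in groups of 4. Chance alone gives such a gap in about 1 in 20 groups, and 7 were found in 114 groups checked over the transporters, the other genes named and the list means. Array VEGF 4 stood apart from the other VEGF arrays for Ndrg1, at 0.130 against -0.733 to -0.663, and for Plvap, at -0.051 against 0.015 to 0.022. VEGF 3 stood apart for Adgra2, at -0.327 against 0.021 to 0.049, and for the pericyte list mean, at -0.252 against 0.000 to 0.016. VEGF 1 was low for Abcb1b, at -0.075 against -0.006 to 0.003. Among control arrays, control 2 was high for Lef1, at 0.074 against -0.242 to -0.190, and control 4 for Flt1, at 0.079 against -0.021 to -0.020.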

How the results depend on the processing

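No transporter passed over all genes under any of the 20 alternatives, and 185 of 200 transporter values kept their sign. Some of these signs could not change. The robust prior with a trend, the replicate block, the methods' t-test and probe sets tested alone leave each transporter's difference as it was. Mfsd2a stayed below 0 in all 20 alternatives, between -0.238 and -0.105, with adjusted p between 0.13 and 0.616. Leaving out each array in turn gave 0 to 10 genes past the threshold (10 without VEGF 4), 0 transporters past it, 1 to 2 transporters at an unadjusted p under 0.05, and a median transporter difference of -0.048 to 0.010. Quantile normalization gave 1 gene past the threshold, as did leaving out VEGF 1, VEGF 2 and control 2, the 3 arrays of highest thalamic mean. Transporters at an unadjusted p under 0.05 numbered 0 without these arrays and 0 with the thalamic mean as a covariate, the median difference then being -0.061. Under the alternatives, the methods' t-test aside, no share of all genes at that p was computed beside such counts.

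With the replicate block the transporters at an unadjusted p under 0.05 numbered 2 (Mfsd2a, and Slco1c1 at an unadjusted limma p of 0.049). The block changed no call over all genes. Same-numbered arrays deviated together with correlations of 0.052, -0.130, 0.454 and 0.301, in the order of their numbers. For the last 2 of these values, the VEGF array correlated best with the control array of its own number. VEGF 1 correlated best with control 2 (0.518), and VEGF 2 also with a control array of another number (0.211). The numbers are therefore not taken as a pairing, and whether same-numbered arrays were handled together was not tested.

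None of the values that changed sign was called, and the cause was not tested. Under quantile normalization they were Slc2a1 at 0.005, Slc2a3 at 0.002, Kdr at 0.028 and Adgra2 at 0.050. With array weights they were Abcb1a at 0.005, Pecam1 at -0.017, Flt1 at -0.010 and Adgra2 at 0.002, and with the sex index Slc2a1 at 0.003, Kdr at 0.021 and Adgra2 at 0.031. With the pan-endothelial mean Adgra2 was at 0.00029, and without VEGF 3 and control 3 Kdr was at 0.005 and Adgra2 at 0.031. With the thalamic mean they were Slco1a4 at -0.117, Abcg2 at -0.069, Abcc4 at -0.033, Abcb1b at 0.008, Pecam1 at -0.055, Tfrc at -0.135 and Vegfa at -0.011. Without the 3 arrays of highest thalamic mean they were Slco1a4 at -0.034, Abcb1a at 0.007, Abcg2 at -0.067, Abcc4 at -0.002, Abcb1b at 0.008, Pecam1 at -0.044, Flt1 at -0.025 and Tfrc at -0.099. Leaving out single arrays gave ranges across 0 of -0.048 to 0.007 for Slc2a1, -0.098 to 0.013 for Abcb1a, -0.057 to 0.082 for Abcg2, -0.097 to 0.011 for Slc2a3, -0.049 to 0.012 for Abcb1b and -0.117 to 0.005 for Ocln. The ranges were -0.032 to 0.062 for Pecam1, -0.123 to 0.018 for Cdh5, -0.089 to 0.078 for Kdr, -0.006 to 0.047 for Flt1, -0.047 to 0.116 for Tfrc and -0.059 to 0.079 for Adgra2. For the other transporters the ranges were -0.235 to -0.009 for Slco1c1, 0.005 to 0.132 for Slco1a4, 0.011 to 0.081 for Abcc4, -0.106 to -0.028 for Slc7a5, -0.048 to -0.001 for Slc3a2 and 0.087 to 0.220 for Slc16a1. Ndrg1 passed without VEGF 4, at -0.785.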
